A study of Mus musculus with 2 samples.

Results

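Sensory neuron identity transcription factors are the DNA-binding proteins that make embryonic ganglion cells into sensory neurons and then divide these neurons into classes. The 10 genes described here were chosen by symbol as such factors, out of 23282 rows in each count file, and all 10 had counts in both libraries. Drgx was found in the files under the symbol Prrxl1, of which RefSeq lists Drgx as a synonym. Gene expression was measured by RNA sequencing of dorsal root ganglia, the clusters of sensory neuron cell bodies beside the spinal cord, from wild-type (WT) mice. The AEW library came from mice whose skin was dried with acetone, ether and water (AEW), a treatment used to model itch, for 5 days in a row, with ganglia taken on day 6, and the control library from mice given water. Each group's RNA was a pool of 6 mice, which is read here as 1 library per group. No difference below therefore has a replicate check, and the sources used here do not give age, sex or the spinal level of the ganglia.

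Isl1 and Pou4f1 act in nearly all developing sensory neurons, where they end the early neurogenic programme and switch on sensory genes. Prdm12, Tlx3, Drgx and Runx1 are used in the lineage of pain and itch neurons (nociceptors), and Runx3, Shox2 and Etv1 in neurons of touch and body position. Foxp2 belongs to a family of forkhead repressors and is counted in mouse single-cell surveys among the genes of cold-sensing neurons. Several of these factors stay on in adult neurons, so their transcripts serve as labels of neuron classes as well as of development.

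The AEW library held 14376228 counts and the control library 9333882, a ratio of 1.54. The labels give neurons as the cell type, and all 22 markers of neurons in general that were listed had counts, but so did glial, connective tissue and immune genes. Pan-neuronal markers took 1.67% of counts in the AEW library and 1.005% in the control, and 7 Schwann cell markers took 1.69% and 1.87%. Keratin and other skin or hair markers, 11 of 12 of which had a row, summed to 885 CPM (counts scaled to library size) in the AEW library and 20.1 CPM in the control. Macrophage markers summed to 307 CPM in the AEW library and 809.9 CPM in the control, and skeletal muscle markers to 551 and 1322 CPM.

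The comparison asks how the factors' transcripts differed between ganglia of AEW-treated and water-treated mice. The 2 general sensory factors and 2 of the 4 nociceptor factors were higher in the AEW library, none of the 3 touch and proprioceptor factors passed the threshold, and Foxp2 was lower. A gene was called when its scaled AEW to control ratio was at least 1.5-fold in either direction and the exact 95% counting interval of the ratio excluded 1. By this rule 4 of the 10 genes were called higher (Isl1, Pou4f1, Tlx3 and Runx1), 1 was called lower (Foxp2) and 5 were neither. Over all 14854 genes measured, that is with 20 or more counts in sum, 17.3% were called higher and 14.9% lower (32.3% in either direction), so calls were common in this pair of libraries. The median log2 ratio was 0.61 over the 10 genes and 0.03 over all measured genes. In bulk RNA, fewer cells of a type and less RNA per cell cannot be told apart.

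**Figure D1:**
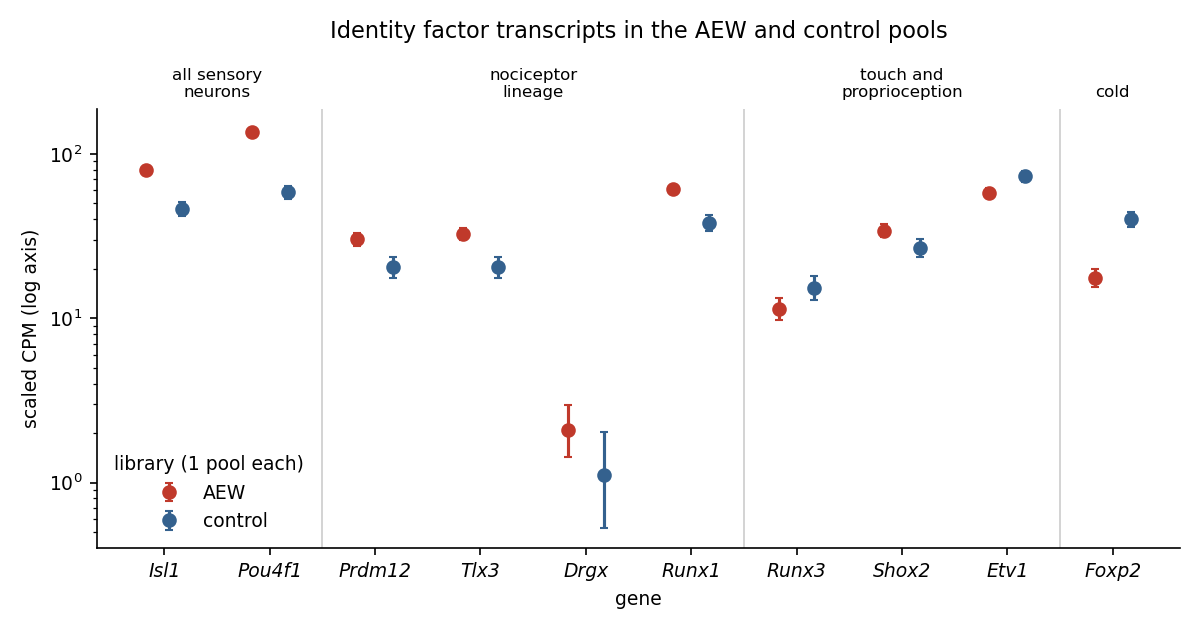
Level of each factor in scaled CPM on a log axis, with the AEW pool (red) left of the control pool (blue) and exact 95% Poisson intervals that cover counting error only. Pou4f1 and Isl1 stood at 135 and 79.1 CPM in the AEW pool against 58.2 and 45.9 CPM in the control, whereas Foxp2 stood at 17.6 against 40.1 CPM.

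Pou4f1, the POU-homeodomain factor also called Brn3a, had the highest ratio of the 10 factors. It had 2006 counts (135 CPM) in the AEW library and 527 counts (58.2 CPM) in the control. The ratio was 2.33 with a counting interval of 2.11 to 2.56, which lay at percentile 94.0 of measured genes. Isl1, a LIM-homeodomain factor that works with Pou4f1, had 1173 counts (79.1 CPM) in the AEW library and 416 counts (45.9 CPM) in the control. Its ratio was 1.72 (1.54 to 1.93), so both general factors were higher, and their intervals did not overlap each other. Pou4f1 (ENSMUSG00000048349.9) lies on chromosome 14 from 104461676 to 104467999, and Isl1 (ENSMUSG00000042258.13) on chromosome 13 from 116298281 to 116309689, both on the minus strand of mm10. The 250 bases before their annotated starts are shown because these genes had the highest counts of the 10 in the AEW library. They come from RefSeq on GRCm38.p6, at chr14:104468000-104468249 and chr13:116309689-116309938, and read 5′ to 3′ on the minus strand. Capitals mark the CCAAT box, searched as CCAAT on both strands.
Pou4f1: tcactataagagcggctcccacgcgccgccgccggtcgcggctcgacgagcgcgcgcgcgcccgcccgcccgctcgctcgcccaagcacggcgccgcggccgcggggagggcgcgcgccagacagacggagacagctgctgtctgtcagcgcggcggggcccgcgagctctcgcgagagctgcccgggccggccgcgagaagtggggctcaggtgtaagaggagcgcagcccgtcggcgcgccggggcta
Isl1: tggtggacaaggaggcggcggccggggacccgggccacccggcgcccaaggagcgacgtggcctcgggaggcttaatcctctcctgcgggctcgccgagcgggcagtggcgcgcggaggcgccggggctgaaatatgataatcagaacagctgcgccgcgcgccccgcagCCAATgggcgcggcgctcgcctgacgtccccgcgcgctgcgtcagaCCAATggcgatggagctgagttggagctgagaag
The Isl1 window held CCAAT at 80 and 34 bases before the start, and the Pou4f1 window held no match. GC content was 78.0% in the Pou4f1 window and 71.2% in the Isl1 window, against a median of 52.4% over all windows. Of 32851 RefSeq windows of this length, 11120 held CCAAT. These matches describe the letters and say nothing of binding.

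The factors of the nociceptor lineage were all above 1 in their ratio, and 2 of the 4 passed the threshold. Runx1, a Runt-domain factor that drives the non-peptidergic class of pain and itch neurons, had 900 counts (60.7 CPM) in the AEW library and 344 counts (37.99 CPM) in the control, a ratio of 1.60 (1.41 to 1.82). Tlx3, a homeodomain factor needed for several pain and itch receptor genes in mice, had 482 counts (32.5 CPM) in the AEW library and 185 counts (20.4 CPM) in the control, a ratio of 1.59 (1.34 to 1.90). Both were called higher, with ratios that differed by less than their counting error. After correction for whole-transcript GC content, Tlx3 had a ratio of 1.24 and was not called, while Runx1 had a ratio of 1.67 and was still called. Prdm12, a PR-domain regulator without which nociceptors do not form, had 446 counts (30.1 CPM) in the AEW library and 185 counts (20.4 CPM) in the control. Its ratio of 1.47 (1.24 to 1.76) lay just under the threshold, and its interval overlapped those of Runx1 and Tlx3. Drgx, a paired-homeodomain factor of nociceptors and of their spinal targets, had 31 counts (2.09 CPM) in the AEW library and 10 counts (1.10 CPM) in the control. Its ratio of 1.89 (0.90 to 4.33) could not be separated from 1 at this depth. Summed over the 4 genes, the ratio was 1.57 (1.44 to 1.71).

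Runx1 (ENSMUSG00000022952.17) lies on chromosome 16 from 92601466 to 92826149 and Tlx3 (ENSMUSG00000040610.7) on chromosome 11 from 33200752 to 33203589, both on the minus strand. Prdm12 (ENSMUSG00000079466.2) lies on the plus strand of chromosome 2 from 31640037 to 31655795, and Drgx (ENSMUSG00000041730.14) on that of chromosome 14 from 32599407 to 32649246. Prdm12 and Runx1 share 200 and 106 exon bases with antisense genes that have no row in the files, and the sources used here do not say whether counting used strand. Runx1 is also expressed in hair follicles and in macrophages. Beside its ratio, all 10 measured skin and hair markers were called higher and 10 of 11 macrophage markers were called lower. The part of these cells in the Runx1 counts was not tested.

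The touch and proprioceptor factors did not share a direction. Shox2, a homeodomain factor of rapidly adapting touch neurons in mice, had 505 counts (34.1 CPM) in the AEW library and 242 counts (26.7 CPM) in the control, a ratio of 1.27 (1.09 to 1.49). Runx3, the Runt-domain factor of proprioceptors, had 169 counts (11.4 CPM) in the AEW library and 139 counts (15.4 CPM) in the control, a ratio of 0.74 (0.59 to 0.94). Etv1, an Ets-domain factor also called Er81 that proprioceptors need for their spinal connections, had 853 counts (57.6 CPM) in the AEW library and 660 counts (72.9 CPM) in the control, a ratio of 0.79 (0.71 to 0.88). None of the 3 reached 1.5-fold, although each interval excluded 1, above it for Shox2 and below it for Runx3 and Etv1. After correction for whole-transcript GC content, the ratios were 1.28 for Shox2, 0.68 for Runx3 and 0.97 for Etv1. After correction on the last 500 bases they were 1.51, 0.77 and 0.96, and Shox2 was then called higher. The Etv1 ratio thus lay close to 1 under both corrections, and the part of GC content in it was not tested. Runx3 was called lower, at a log2 ratio of -0.59, after 1 random thinning of the AEW library to the control total. Shox2 (ENSMUSG00000027833.16, chromosome 3, 66971727 to 66981771, minus strand) shares 153 exon bases with Rsrc1 on the opposite strand, which had 1118 counts in the AEW library and 572 in the control, a ratio of 1.19 (1.08 to 1.32). Reads in that overlap may be counted for either gene, so the Shox2 value is uncertain. Etv1 (ENSMUSG00000004151.17) lies on the plus strand of chromosome 12 from 38779380 to 38870484, and Runx3 (ENSMUSG00000070691.10) on that of chromosome 4 from 135120652 to 135177990.

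Foxp2 was the 1 factor called lower. It had 261 counts (17.6 CPM) in the AEW library and 363 counts (40.1 CPM) in the control, which was 2.28-fold lower (1.94 to 2.68), at percentile 4.84 of measured genes. The call was kept under all 12 alternative settings, with log2 ratios between -1.83 and -0.99. Foxp2 (ENSMUSG00000029563.16) lies on the plus strand of chromosome 6 from 14901349 to 15441977. The cold receptor Trpm8, the defining gene of cold-sensing neurons, had 2 counts in the AEW library and 0 in the control, so these libraries give no level for that class beside Foxp2. Foxp2 is also expressed in the spinal cord, as are Isl1, Tlx3, Drgx and Shox2. Of 14 markers of spinal cord cells, 10 were measured, of which 3 were called lower and 1, Pax2, higher. They summed to 32.4 CPM in the AEW library and 42.6 CPM in the control. Slc6a5, Lbx1, Lmx1b and Mnx1 had 0 counts in both libraries, and Pax2 had 0 in the control. The part of spinal cord RNA in the Foxp2 difference was not tested.

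**Figure D2:**
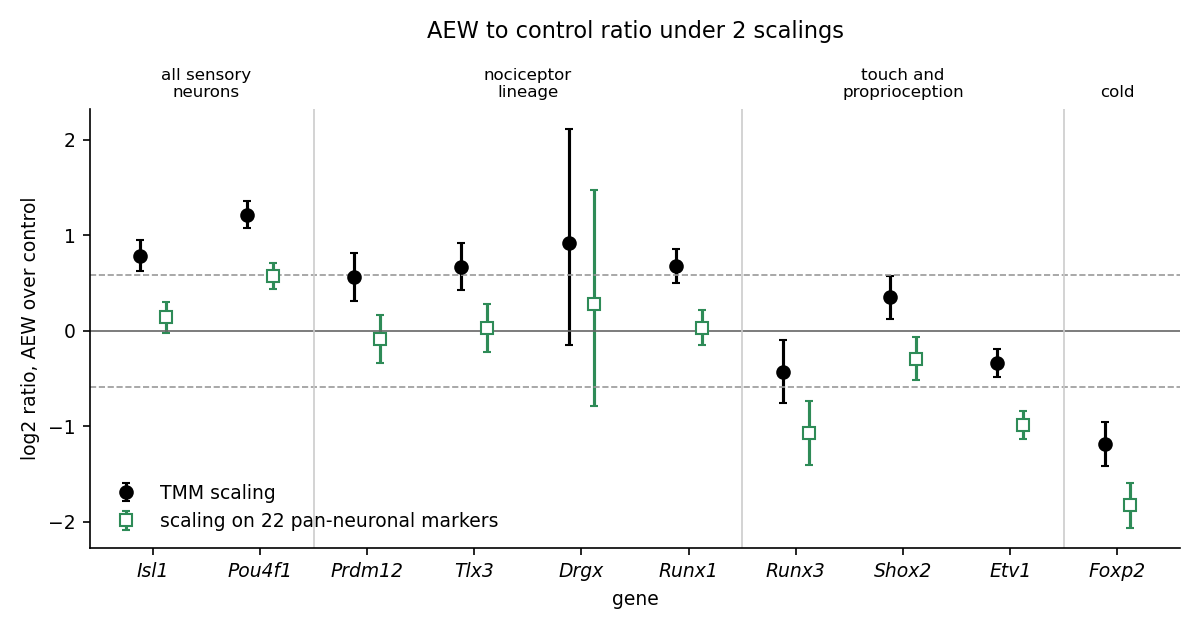
Log2 ratio of AEW over control for each factor with 95% counting intervals, under TMM scaling (filled circles) and when the libraries are scaled on the summed pan-neuronal markers (open squares, with the scaling taken as exact). Dashed lines mark 1.5-fold. The pan-neuronal scaling lowers all points by the same amount. The general and nociceptor factors then lie at or above -0.09, Shox2 at -0.29, and Runx3, Etv1 and Foxp2 between -1.83 and -0.98.

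The listed pan-neuronal markers were higher in sum in the AEW library, although 8 of them were called in neither direction. The 22 pan-neuronal markers had 14 called higher and none lower, a median log2 ratio of 0.88, and a summed ratio of 1.56 (1.55 to 1.57). Scaled on these markers, the log2 ratio was 0.57 for Pou4f1, 0.14 for Isl1, 0.033 for Runx1, 0.026 for Tlx3 and -0.09 for Prdm12. On that scale none of the 10 factors was called higher, and Runx3 at -1.07, Etv1 at -0.98 and Foxp2 at -1.83 were called lower. The same scaling gave 700 genes higher (4.71%) and 7314 lower (49.2%) over all measured genes, in place of 2577 and 2220. The median log2 ratio of all measured genes was -0.61 on that scale, so a value below 0 was usual there. Relative to the sum of these markers, Runx1, Tlx3 and Prdm12 lay within 0.09 of 0, and Runx3, Etv1 and Foxp2 lay below it by 0.98 or more. Drgx lay at 0.28. Shox2, the remaining touch and proprioceptor factor, lay between these groups at -0.29 and was not called. The markers themselves had log2 ratios between -0.22 and 1.73 under TMM scaling, and their median of 0.88 was above the TMM-scaled log2 ratios of Isl1 at 0.78, Runx1 at 0.68, Tlx3 at 0.67 and Prdm12 at 0.56.

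Shares among the 10 factors do not depend on scaling between libraries. The 10 genes had 6826 counts in the AEW library and 3071 in the control. Pou4f1 took 29.4% of these counts in the AEW library (exact binomial interval 28.3 to 30.5) and 17.2% in the control (15.8 to 18.5). Isl1 took 17.2% (16.3 to 18.1) in the AEW library and 13.5% (12.4 to 14.8) in the control, and Runx1 took 13.2% (12.4 to 14.0) and 11.2% (10.1 to 12.4). Etv1 held the largest share in the control with 21.5% (20.1 to 23.0) and took 12.5% (11.7 to 13.3) in the AEW library. Foxp2 took 3.82% (3.38 to 4.31) in the AEW library and 11.8% (10.7 to 13.0) in the control. The odds of a count belonging to Pou4f1 were 2.01 times (1.80 to 2.24) as high in the AEW library, and those of Foxp2 0.30 times (0.25 to 0.35). Prdm12, Tlx3, Drgx and Shox2 had odds ratios between 0.93 and 1.40 whose intervals included 1. The share of each factor depends on the other factors in the sum. With Pou4f1 left out of the sum, the odds ratios of Prdm12 at 1.30 and Tlx3 at 1.42 had intervals that excluded 1.

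**Figure D3:**
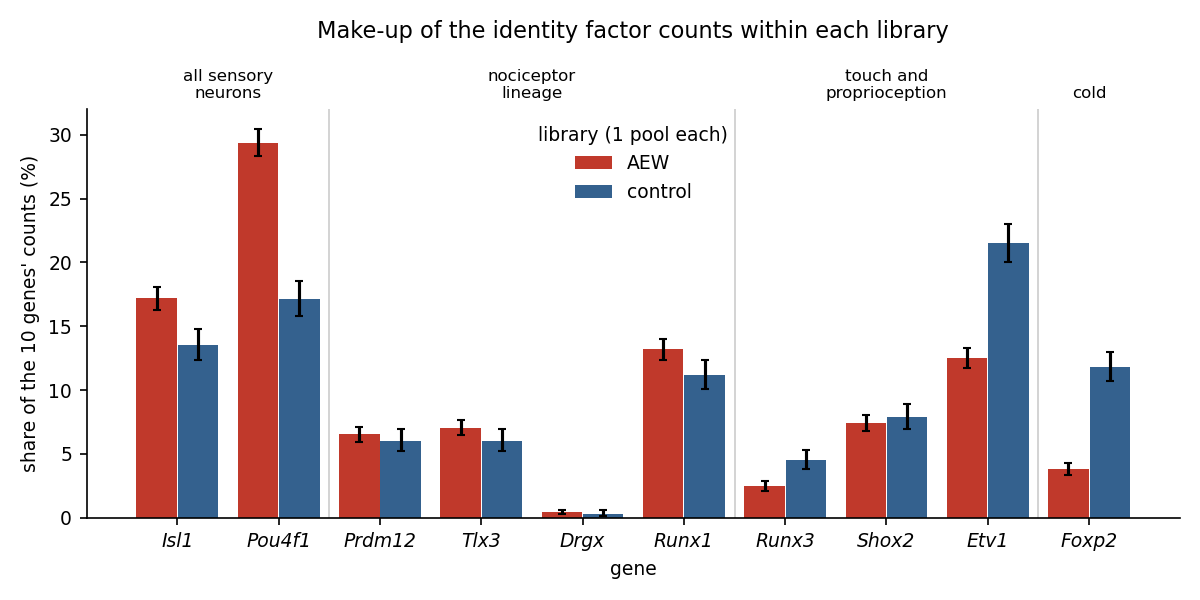
Share of the summed counts of the 10 factors that each factor took, in percent, with the AEW pool (red) left of the control pool (blue) and exact 95% binomial intervals. Pou4f1 led the AEW pool with 29.4%, and Etv1 led the control pool with 21.5%.

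The Runt factors mark opposite arms of sensory development, since Runx1 acts in nociceptors and Runx3 in proprioceptors. Runx3 had 0.19 counts for each Runx1 count in the AEW library (interval 0.16 to 0.22) and 0.40 in the control (0.33 to 0.49). The AEW to control ratio of these values was 0.46 (0.36 to 0.61), independent of scaling. Runx3 is also expressed in lymphocytes, whose 9 listed markers summed to 6.34 CPM in the AEW library and 11.2 CPM in the control. Of these, 3 were measured, and Cd79b was called lower at 19 and 36 counts. The markers did not share a direction. Cd79a had 19 counts in the AEW library and 21 in the control, and Ms4a1 5 and 13. Cd4 had 17 and 2 counts, Cd3e 9 and 3, Cd3d 13 and 13, Cd3g 6 and 7, Cd8a 2 and 3, and Nkg7 4 and 3. The part of lymphocytes in the Runx3 counts was not tested. The distal Runx3 window from RefSeq (chr4:135120395-135120644, plus strand, GRCm38.p6) is shown beside that of Tlx3 (chr11:33203589-33203838, minus strand), because Runx3 alone among the windows of the measured factors held the core letters bound by Runt factors more than once. Capitals mark CCAAT and the Runx core TGTGGT, each searched on both strands, so that a match on the other strand reads ATTGG or ACCACA.
Runx3: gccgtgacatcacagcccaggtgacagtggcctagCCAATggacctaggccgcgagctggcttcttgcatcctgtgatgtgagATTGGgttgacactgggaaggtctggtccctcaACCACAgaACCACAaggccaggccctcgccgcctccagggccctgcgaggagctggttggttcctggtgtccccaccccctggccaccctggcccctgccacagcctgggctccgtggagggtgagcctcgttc
Tlx3: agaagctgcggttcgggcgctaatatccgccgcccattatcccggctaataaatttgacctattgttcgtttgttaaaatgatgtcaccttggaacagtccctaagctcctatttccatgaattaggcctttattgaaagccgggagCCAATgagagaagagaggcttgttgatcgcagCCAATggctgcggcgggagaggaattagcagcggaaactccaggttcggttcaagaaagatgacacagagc
The Runx core occurred at 134 and 126 bases before the Runx3 start. It occurred in 4614 of the 32851 RefSeq windows, and in 3 of the 12 windows of the 9 factors that matched, namely those of Runx3, Drgx and Etv1. The Tlx3 window held CCAAT at 103 and 71 bases before the start. A match is a description of the letters only.

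Levels were compared between factors per kb of merged exon in GENCODE M21 as well as without length, since it is not given whether reads came from whole transcripts. Merged exon joins the exons of all transcripts of a gene. For Foxp2, Etv1, Runx1 and Isl1 it is 16346, 13296, 12025 and 3959 bases, against 6760, 6576, 5861 and 2516 in the longest transcript. For Tlx3 and Prdm12 both lengths are the same, at 1533 and 2471 bases. The order per kb thus depends on the length used, and that by longest transcript was not computed. Per kb, the order in the AEW library was Pou4f1 at 29.0 CPM per kb, Tlx3 at 21.2, Isl1 at 19.99, Prdm12 at 12.2, Shox2 at 10.3, Runx1 at 5.05, Etv1 at 4.33, Runx3 at 2.28, Foxp2 at 1.08 and Drgx at 0.50. With merged exon as the length, counting intervals overlapped only for the neighbours Tlx3 and Isl1, and Prdm12 and Shox2. In the control library, Tlx3 at 13.3, Pou4f1 at 12.5 and Isl1 at 11.6 CPM per kb did not differ beyond counting error between neighbours. Prdm12 and Shox2 followed at 8.27 and 8.07 CPM per kb, then Etv1 at 5.48, Runx1 at 3.16, Runx3 at 3.07, Foxp2 at 2.45 and Drgx at 0.26. Intervals overlapped between Runx1 and Runx3 and between Runx3 and Foxp2. Without length, 3 of the 10 factors had the same rank in the AEW library and 3 in the control, since Etv1, Foxp2 and Runx1 have 12.025 to 16.3 kb of merged exon and Tlx3 has 1.53 kb.

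Among 16 other neurogenic and pan-sensory factors, 12 were measured, of which 4 were called higher, 2 lower and 6 in neither direction. Their median log2 ratio was 0.60, beside 0.03 over all measured genes, of which 17.3% were called higher and 14.9% lower. Klf7, a zinc finger factor that mouse nociceptors need for their survival, had 2999 counts in the AEW library and 780 in the control, a ratio of 2.35 (2.17 to 2.54). Isl2, the close relative of Isl1, had 2180 and 824 counts, a ratio of 1.62 (1.49 to 1.75), and Pou4f2 was called higher at 158 and 43 counts. Eya1, a transcription cofactor of early ganglia, was 2.67-fold lower (1.82 to 3.94) and Sox11, a factor of immature and regrowing neurons, 1.63-fold lower (1.47 to 1.80). The list thus held genes on both sides, as the 10 factors did.

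Of 21 further factors of sensory neuron classes, 18 were measured, of which 6 were called higher, 2 lower and 10 in neither direction. Their median log2 ratio was 0.35, beside 17.3% called higher and 14.9% lower and a median of 0.03 over all measured genes. Casz1, a zinc finger factor, had 2242 counts in the AEW library and 457 in the control, a ratio of 2.997 (2.71 to 3.32). Bcl11b, a zinc finger factor also called Ctip2, was 2.24-fold higher (1.88 to 2.67), and Onecut2 1.77-fold (1.65 to 1.91). Maf, a leucine zipper factor of touch neurons, was 1.64-fold lower (1.55 to 1.75), while Foxp1, a relative of Foxp2, had a ratio of 0.79 (0.73 to 0.84). Maf is also expressed in macrophages, whose markers were lower as given above, and the part of macrophages in its value was not tested.

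**Figure D4:**
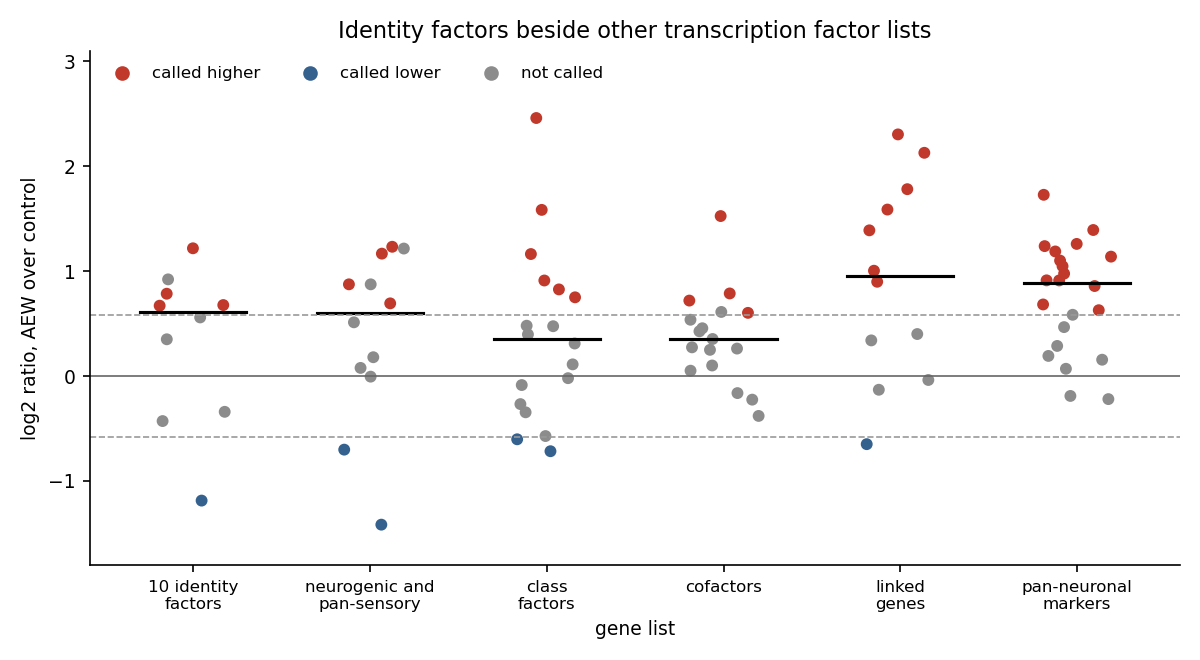
Log2 ratio of AEW over control for every measured gene of 6 lists, coloured by call, with the list median as a black bar and dashed lines at 1.5-fold. The 10 identity factors had a median of 0.61, close to the neurogenic and pan-sensory factors at 0.60. The class factors and the cofactors each had 0.35, the pan-neuronal markers 0.88 and the linked genes 0.95.

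Genes linked to these factors in mice, as genes they control or as markers of the same neuron classes, were then read beside them. Of 13 listed, 12 were measured, of which 7 were called higher, 1 lower and 4 in neither direction. Their median log2 ratio was 0.95. All measured genes had a median of 0.03, with 17.3% called higher and 14.9% lower. Ntrk3, the receptor of proprioceptors that Runx3 maintains, was 1.86-fold higher (1.69 to 2.05), whereas the ratio of Runx3 itself was below 1. Ntrk2, the receptor of touch neurons linked to Shox2, had a ratio of 1.27 (1.17 to 1.36), close to that of Shox2. Pvalb, the calcium-binding protein of proprioceptors, had a ratio of 0.97 (0.92 to 1.03). Among genes that depend on Runx1, P2rx3, an ATP-gated channel, was 2.01-fold higher (1.85 to 2.17) and Slc17a8, a vesicular glutamate transporter, 2.62-fold (1.45 to 5.07) at 60 and 14 counts, while the sodium channel gene Scn11a had a ratio of 1.32 (1.25 to 1.39). Mrgprd, Mrgpra3 and Th of the same group were called higher and Ret was called lower. On the pan-neuronal scale 4 of the 12 were called higher and 3 lower, beside 4.71% and 49.2% of all measured genes on that scale.

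Counting error is the only error these intervals cover, and copies of 1 molecule made by amplification cannot be told from separate molecules. The longest transcript of Tlx3 is 67.3% GC. Its log2 ratio was 0.31 after correction for whole-transcript GC content and 0.30 after correction for that of the last 500 bases. Tlx3 was not called under either. The longest transcript of Etv1 is 39.8% GC, and its log2 ratio was -0.04 and -0.05 after the same corrections. The part of GC content in the ratios of Tlx3 and Etv1 was not tested.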

How the data were processed

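RNA of dorsal root ganglia was extracted with Trizol and made into libraries from total RNA with a Lexogen Quant-Seq kit, per the labels' protocols. The deposited values are raw read counts per gene symbol, not normalized; Bowtie2, bedtools and build mm10 are named in the submitters' processing notes, while versions, annotation, strand use and the handling of reads with several matches are not given in these sources. The files held no sample columns beyond the 2 libraries. Rows with a repeated symbol (79) stayed in the totals and out of the calls.

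From the deposited counts, edgeR 4.0.16 (R 4.3.3) gave TMM factors of 1.03 for AEW and 0.970 for the control, and scaled CPM, ratios and exact conditional binomial intervals were computed with SciPy 1.17.1. With 1 library per group no p-value was computed. A count of 0 allows up to 3 counts, which is 0.202 CPM in the AEW and 0.331 CPM in the control library. Of 174 listed symbols, 173 matched a row. The lists and the genes were chosen with earlier results of these data known. All 10 factors are named; of each other list of factors, cofactors or relatives the text names up to 6 genes, the 3 with the highest lower bounds and the 3 with the lowest upper bounds of the ratio, any of the linked genes, and Foxp3; some of these are not reported here. Gene coordinates and exon lengths come from GENCODE M21, 1-based on mm10. In all, 12 other settings were tried, among them DESeq2 1.42.0 size factors.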

Additional observations from a re-analysis of the deposited data

How the results depend on the processing

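No paired analysis was possible because each group has 1 library, and leaving out a replicate was not possible for the same reason. DESeq2 size factors, upper quartile scaling, totals without the 10 most abundant rows and the skin markers, no filter, and a summed count of at least 100 left every call of the 10 factors as it was, except that Drgx fell under the stricter minimum. Total count scaling called Prdm12 higher (log2 ratio 0.65) and left 1 class factor and 0 linked genes lower. Scaling on pan-neuronal markers moved the median log2 ratio of all genes by -0.64. It gave 0 factors higher and 3 lower (Isl1 0.14, Pou4f1 0.57, Tlx3 0.026 and Runx1 0.033 no longer called, Runx3 -1.07 and Etv1 -0.98 now called lower), 1 neurogenic factor higher, 1 class factor higher and 7 lower, 1 cofactor higher and 4 lower, 4 linked genes higher and 3 lower, and 700 of all genes higher and 7314 lower. Thinning the AEW library called Runx3 lower (-0.59), for 2 factors lower. When the interval had to exclude 1.5-fold, Tlx3 (0.67) and Runx1 (0.68) were not called, and 2 factors were higher, with 2 neurogenic factors higher and 1 lower, 3 class factors higher and 1 lower, 0 linked genes lower, and 1327 of all genes higher and 1071 lower. At 2-fold, Isl1 (0.78), Tlx3 (0.67) and Runx1 (0.68) were not called and 1 factor was higher, with 2 neurogenic factors higher and 1 lower, 3 class factors higher and 0 lower, 1 cofactor higher, 0 linked genes lower, and 1223 of all genes higher and 1018 lower. Tlx3 lost its call after whole-transcript GC correction (0.31). Correction on the last 500 bases, chosen after seeing the data, ended the call of Tlx3 (0.30), called Prdm12 (0.61), Drgx (1.07) and Shox2 (0.59) higher, and left 1 neurogenic factor and 0 linked genes lower. Without Pou4f1, the odds ratios of Prdm12 (1.30) and Tlx3 (1.42) excluded 1. Without length, 3 factors had the same rank in each library. The cause of these changes was not tested, except where the setting itself is a stricter threshold. At 31 and 10 counts, depth limited Drgx most.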

Other observations

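Of 18 listed cofactors with which these factors work, 17 were measured, of which 4 were called higher, 0 lower and 13 in neither direction, beside 17.3% higher and 14.9% lower over all measured genes. Their median log2 ratio was 0.35. Ehmt1, a histone methyltransferase, had 1785 counts in the AEW library and 379 in the control, a ratio of 2.88 (2.57 to 3.22). Ssbp3 and Ldb2, partners of LIM-homeodomain factors such as Isl1, were 1.73-fold (1.64 to 1.82) and 1.65-fold (1.51 to 1.79) higher. Lmo4, a LIM-only protein that binds the same partners, had a ratio of 0.77 (0.71 to 0.83), and the corepressor Tle3 of 0.86 (0.74 to 0.99).

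Relatives of the 10 factors were looked up by family name, a choice made after values were seen. Of 26 relatives, 21 were measured, of which 6 were called higher, 5 lower and 10 in neither direction. Their median log2 ratio was 0.08, beside 0.03 over all measured genes, of which 17.3% were called higher and 14.9% lower. Tlx2, a relative of Tlx3, had 1212 counts in the AEW library and 414 in the control, a ratio of 1.79 (1.60 to 2.004), and more counts than Tlx3 in both libraries. Isl2 and Pou4f2, given above, were also called higher, and Foxp1 was in neither direction. Prdm16, a relative of Prdm12, had 188 counts in the AEW library and 197 in the control, a ratio of 0.58 (0.47 to 0.72), and was called lower. Prrx1, a paired-homeodomain relative of Drgx expressed in connective tissue, was called lower with a ratio of 0.55 (0.47 to 0.65), beside fibroblast markers that summed to 6952 CPM in the AEW library and 14477 CPM in the control. Foxp3, a gene of regulatory T cells that was singled out after its value was seen, had 192 counts in the AEW library and 70 in the control, a ratio of 1.68 (1.27 to 2.24), although the T cell genes Cd3e, Cd3d and Cd3g had between 3 and 13 counts each in either library.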
